A study of Mus musculus with 8 samples.

Results

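Mammary tumors of female mice without miR-21 (miR-21-/-;MMTV-PyMT, here KO) were compared with tumors of miR-21+/+;MMTV-PyMT mice (here WT), over both treatments of the study together. The comparison takes the 4 KO arrays against the 4 WT arrays, which are the 8 arrays of the study, with treatment as a covariate. Genes were chosen for description by 1 rule, that their 4 KO arrays all lie on one side of their 4 WT arrays. Of 23152 measured genes, 957 had all KO arrays above all WT arrays and 1421 had all KO arrays below all WT arrays, 2378 in all.

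RNA of whole primary tumors was hybridised to Affymetrix Mouse Gene 2.0-ST arrays, with 2 arrays each for irradiated KO, untreated KO, irradiated WT and untreated WT tumors. All groups carry the MMTV-PyMT transgene, in which the promoter of the mouse mammary tumor virus drives polyomavirus middle T antigen in mammary epithelium. KO mice lack both copies of miR-21 in every cell, so that the tumor cells and the host cells within the tumor differ together from WT. By the labels, irradiated tumors received 8 Gy at 1000 mm3 and were left to grow until the total tumor volume was 2000 mm3, whereas the methods of the study state a lower dose and a figure legend places collection on the next day. Mice were followed for 18 weeks or to a humane endpoint, and their age at collection is not given in the sources used here.

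miR-21 is a microRNA, a short RNA that guides a silencing complex to messenger RNAs through its seed, the bases near its 5′ end, and lowers their stability and translation. It is abundant in many carcinomas, where it is known for holding down inhibitors of growth signaling and of survival. Direct targets of a microRNA are held down by it, while genes further along a pathway can go either way when it is lost. The mature strand is shown because its deletion defines the groups, with the seed (bases 2 to 8) in capitals, from RefSeq on GRCm38.p6.
mmu-miR-21a-5p: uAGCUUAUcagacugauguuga
Its hairpin lies at chr11:86584067-86584158 on the minus strand, at the end of the gene of the vacuole membrane protein Vmp1. A search for seed matches in transcripts was not made here, since no transcript sequences were at hand.

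Mir21 was measured by 1 dim probe set, which the annotation assigns to both Mir21 and Vmp1. Its level ranks at percentile 7.0 on these arrays. It had log2 levels of 1.69 and 1.97 in the irradiated KO arrays and 2.02 and 2.0 in the untreated KO arrays, against 2.75 and 3.08 in the irradiated WT arrays and 2.50 and 2.34 in the untreated WT arrays. The genotypes do not overlap there (difference -0.75, two-sided exact permutation p = 0.0286, the smallest that 4 against 4 arrays allow). The 22 probe sets assigned to Vmp1 alone averaged 6.20, 6.55, 6.34 and 6.34 in the KO arrays and 6.81, 6.80, 7.38 and 7.33 in the WT arrays, again without overlap (log2 fold change -0.72, SE 0.16, adjusted p = 0.0628), and 19 of the 22 pointed down. Taken singly, 2 of the 22 were without overlap, and their differences ran between -4.49 and 0.11 over all 22. The shared probe set is close to the floor of the arrays and does not tell miR-21 from Vmp1, so it is no check of the genotype.

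The 8 arrays had median log2 levels of 5.08 to 5.16. Replicate 1 of the irradiated KO tumors stood apart: its 7 pairwise correlations, taken over genes, ran between 0.898 and 0.915, while the remaining 21 pairs ran between 0.955 and 0.987. The closest replicates were the untreated KO arrays (r = 0.987, median absolute difference 0.178), followed by the irradiated WT pair (r = 0.983, 0.191), the untreated WT pair (r = 0.982, 0.202) and the irradiated KO pair (r = 0.915, 0.317). The 16 adipocyte markers averaged 10.11, 4.61, 4.39 and 4.43 in the KO arrays and 4.31, 5.17, 4.40 and 4.60 in the WT arrays, so that they were high in that same irradiated KO array, and all 16 had a positive genotype difference, with a median of 1.28 that was close to 0 without that array. The 20 fibroblast markers averaged 8.37, 6.68, 6.12 and 6.16 in the KO arrays and 6.17, 6.72, 6.18 and 6.84 in the WT arrays, again highest in that array, and the 23 luminal markers 7.42, 8.18, 7.88 and 7.87 in the KO arrays and 8.53, 8.33, 7.35 and 7.55 in the WT arrays, without a genotype order. In bulk tumor RNA, fewer cells of a type and less RNA per cell cannot be told apart. Whether each array stands for its own mouse is not given in the labels, and p-values reflect only how these samples vary, which may be technical variation.

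Lower expression in KO was the more frequent direction. All KO arrays lay below all WT arrays in 6.14% of genes and above them in 4.13%. In limma's fit with treatment as covariate, 385 genes (1.66%) were lower and 56 (0.242%) higher in KO at a Benjamini-Hochberg adjusted p under 0.05. At a fold change of at least 2 and an unadjusted p under 0.05, the criteria that the study states for its arrays, 328 genes (1.42%) were lower and 105 (0.454%) higher. Of the 441 genes past the adjusted threshold, 356 lower and 47 higher ones also had no overlap. The 2 criteria read the same 8 arrays and are not independent of each other.

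The number of genes past the adjusted threshold depended on single arrays. Without irradiated KO replicate 1 it was 754 lower and 361 higher, and without irradiated KO replicate 2 it was 331 and 79. Without untreated KO replicate 1 it was 62 lower and 5 higher, and without untreated KO replicate 2 it was 108 and 7. Without irradiated WT replicates 1 and 2 in turn, it was 123 lower and 8 higher, and 116 and 7. Without untreated WT replicates 1 and 2 in turn, it was 161 lower and 11 higher, and 187 and 16. Lower genes were in excess in each of the 8 fits. With 3 arrays left in a genotype, the rule of no overlap is easier to meet, and it then took in 1742 to 2060 lower and 1284 to 1988 higher genes.

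The 2 classes of genes differed in their level. The 1421 lower genes had a median log2 level of 6.77, and 86.8% of them lay above the median gene, against 4.86 and 43.5% for the 957 higher genes and a median of 5.13 for all genes. Lower genes had a median difference of -0.58 (range -3.0 to -0.10) and 273 of them differed by at least 2-fold, while higher genes had a median of 0.44 (range 0.06 to 3.25) with 71 at 2-fold or more. The empty space between the genotypes, from the nearest KO array to the nearest WT array, had a median of 0.133 on the log2 scale for lower genes and 0.0884 for higher genes. The widest such gaps were 1.66 for Hhipl2 among the lower and 1.88 for Saa2 among the higher genes.

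The edge of the rule was narrow. Among genes with at least 3 probe sets, Arid3c, a DNA-binding protein gene, was just inside the higher class with a gap of 0.00013, and Cyth3, an exchange factor for ARF GTPases, just inside the lower class with 0.00021. Just outside, Gng8, a G protein gamma subunit, overlapped by 0.00016 and Armcx3, a mitochondrial outer membrane protein gene, by 4e-05. Arid3c measured 5.51, 5.42, 5.69 and 5.48 in the KO arrays and 5.42, 5.24, 5.04 and 5.33 in the WT arrays, and Gng8 4.34, 4.09, 4.45 and 4.56 in the KO arrays and 3.88, 3.89, 4.09 and 3.82 in the WT arrays. The log2 fold changes were 0.27 for Arid3c and 0.44 for Gng8, so a gene outside the rule can differ more than one inside it.

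The largest falls were shared by genes of very different roles. Epb4.1l4a, a band 4.1 protein that links membranes to the cytoskeleton, had log2 levels of 7.04 and 8.35 in the irradiated KO arrays and 7.67 and 7.35 in the untreated KO arrays, against 10.91 and 10.82 in the irradiated WT arrays and 9.88 and 9.95 in the untreated WT arrays. The highest KO array was more than 1 log2 unit below the lowest WT array (log2 fold change -2.79, SE 0.29, adjusted p = 0.00625, 6.91-fold lower), and all 21 probe sets showed the same order without overlap. Hhipl2, a relative of the Hedgehog-binding protein Hhip, had 5.34 and 5.49 in the irradiated KO arrays and 4.54 and 5.05 in the untreated KO arrays, against 8.43 and 8.03 in the irradiated WT arrays and 7.16 and 7.15 in the untreated WT arrays. All KO arrays were far below WT (log2 fold change -2.59, SE 0.17, adjusted p = 0.00431), and the WT arrays themselves were higher when irradiated. St8sia6, a transferase that adds sialic acid to glycans, averaged 5.07 ± 0.34 in KO and 7.11 ± 0.42 in WT tumors (SD, n = 4 each, log2 fold change -2.04, SE 0.25, adjusted p = 0.00866). The secretory pathway protease Cpe, which trims peptide hormone precursors, averaged 6.82 ± 0.35 in KO and 8.72 ± 0.46 in WT tumors (log2 fold change -1.90, SE 0.24, adjusted p = 0.0101).

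The genes of 2 secreted vessel factors were among the 12 largest falls. Adm encodes adrenomedullin, a vasodilating peptide that is known to be induced by low oxygen, and had log2 levels of 6.70 and 5.40 in the irradiated KO arrays and 6.13 and 5.44 in the untreated KO arrays, against 7.22 and 8.15 in the irradiated WT arrays and 8.32 and 8.57 in the untreated WT arrays. The genotypes did not overlap, and an irradiated KO and an irradiated WT array came closest (log2 fold change -2.15, SE 0.36, adjusted p = 0.0286). Pgf, placental growth factor of the VEGF family, had 4.81 and 5.69 in the irradiated KO arrays and 6.23 and 6.18 in the untreated KO arrays, against 7.59 and 6.70 in the irradiated WT arrays and 8.29 and 8.68 in the untreated WT arrays. KO arrays were lowest in the irradiated pair, and WT arrays were highest when untreated (log2 fold change -2.09, SE 0.26, adjusted p = 0.00886). Vegfa itself had 9.26, 7.25, 7.83 and 8.07 in the KO arrays and 9.52, 9.56, 9.72 and 9.81 in the WT arrays, with no overlap and irradiated KO replicate 1 closest to WT (-1.55, adjusted p = 0.0896). Of 15 endothelial markers, 1 (6.67%, against 6.14% of all genes), the vessel diaphragm protein Plvap, lay below WT in all KO arrays (-0.89, adjusted p = 0.0865). The median difference of these markers was 0.27 in irradiated and -0.65 in untreated tumors. Their mean level was 6.54 in irradiated KO replicate 1 and 4.97 in replicate 2, against 5.48 and 5.46 in the irradiated WT arrays. Over both treatments the median was -0.09, and -0.55 without irradiated KO replicate 1.

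Itgb4 and Slfn4 were also among the 12 largest falls. Itgb4, the integrin subunit that anchors epithelia to the basement membrane through hemidesmosomes, averaged 6.68 ± 0.60 in KO and 8.71 ± 0.36 in WT tumors (SD, n = 4 each), and 35 of its 36 probe sets pointed down (log2 fold change -2.03, SE 0.28, adjusted p = 0.0137). Slfn4, a Schlafen family gene of myeloid cells, had 4.94 and 5.05 in the irradiated KO arrays and 4.35 and 4.07 in the untreated KO arrays, against 7.88 and 7.0 in the irradiated WT arrays and 6.72 and 5.22 in the untreated WT arrays. Irradiated WT tumors were highest and an untreated WT array was close to the highest KO array (log2 fold change -2.10, SE 0.34, adjusted p = 0.0252). Of the 12 largest falls, 6 (Epb4.1l4a, Birc5, Hhipl2, Cldn1, Slc2a1 and Cdc25c) kept an adjusted p under 0.05 whichever array was left out. Pgf, St8sia6 and Cpe lost it without untreated KO replicate 1 (adjusted p = 0.0558, 0.0515 and 0.0577). Itgb4 kept it only without irradiated KO replicates 1 or 2 or untreated WT replicate 2, and elsewhere had adjusted p of up to 0.0705. Adm kept it only without irradiated KO replicate 1 or irradiated WT replicate 1 (up to 0.113), and Slfn4 only without irradiated KO replicate 1 or untreated WT replicate 2 (up to 0.0946). Over all 12 genes, 152 of 154 probe sets pointed down.

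**Figure D1:**
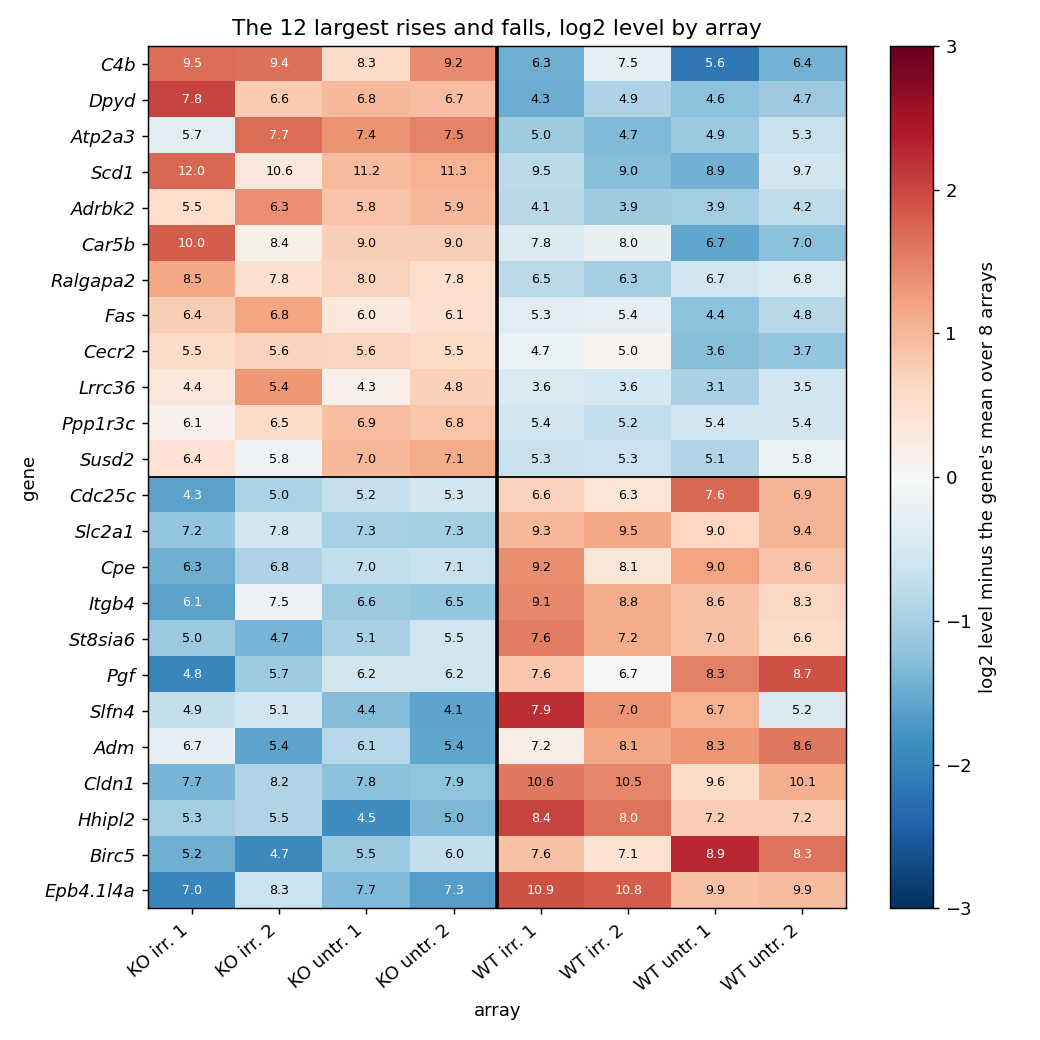
Log2 levels of the 12 genes with the largest rises and the 12 with the largest falls, by the rule for named genes, in each array (columns, KO left of WT, irr. irradiated, untr. untreated). Colour is the level minus the gene's mean over the 8 arrays, and numbers are log2 levels. In every row the KO arrays are on one side of the WT arrays, as the choice of genes requires, for example 7.04 to 8.35 against 9.88 to 10.91 for Epb4.1l4a.

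The largest rises included immune, metabolic and signaling genes. The complement component gene C4b, part of the innate defence cascade, had log2 levels of 9.45 and 9.42 in the irradiated KO arrays and 8.34 and 9.20 in the untreated KO arrays, against 6.30 and 7.47 in the irradiated WT arrays and 5.62 and 6.35 in the untreated WT arrays. Every KO array was above every WT array, and the highest WT array was an irradiated one (log2 fold change 2.67, SE 0.30, adjusted p = 0.00742, 6.34-fold higher). Dpyd, the rate-limiting enzyme of pyrimidine breakdown, had 7.82 and 6.59 in the irradiated KO arrays and 6.77 and 6.72 in the untreated KO arrays, against 4.31 and 4.86 in the irradiated WT arrays and 4.57 and 4.71 in the untreated WT arrays. Irradiated KO replicate 1 was highest, and the other 3 KO arrays were close together and still far above WT (log2 fold change 2.36, SE 0.27, adjusted p = 0.00756). Fas, the death receptor whose ligand triggers caspase 8, had 6.39 and 6.83 in the irradiated KO arrays and 5.97 and 6.14 in the untreated KO arrays, against 5.29 and 5.36 in the irradiated WT arrays and 4.42 and 4.83 in the untreated WT arrays, and was higher in KO in each treatment (log2 fold change 1.36, SE 0.15, adjusted p = 0.00699), with irradiated arrays above untreated ones within each genotype. Adrbk2, a kinase that turns off G protein-coupled receptors, averaged 5.85 ± 0.34 in KO and 4.0 ± 0.15 in WT tumors (SD, n = 4 each, log2 fold change 1.85, SE 0.19, adjusted p = 0.00625).

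Other rises concerned calcium, lipid and glycogen handling. Atp2a3, a calcium pump of the endoplasmic reticulum, had 5.67 and 7.71 in the irradiated KO arrays and 7.37 and 7.51 in the untreated KO arrays, against 4.96 and 4.69 in the irradiated WT arrays and 4.89 and 5.35 in the untreated WT arrays. Here irradiated KO replicate 1 was the lowest KO array and the nearest to WT (log2 fold change 2.09, SE 0.39, adjusted p = 0.0358). Scd1, the desaturase that makes monounsaturated fatty acids and is abundant in adipocytes, had 12.001 and 10.61 in the irradiated KO arrays and 11.24 and 11.33 in the untreated KO arrays, against 9.47 and 9.01 in the irradiated WT arrays and 8.85 and 9.74 in the untreated WT arrays, with irradiated KO replicate 1, the array with high adipocyte markers, at the top (log2 fold change 2.03, SE 0.31, adjusted p = 0.0212). Without that array its log2 fold change was 1.74 (adjusted p = 0.00604). Ppp1r3c, which brings a phosphatase to glycogen, averaged 6.58 ± 0.36 in KO and 5.35 ± 0.08 in WT tumors (1.24, adjusted p = 0.00886), and Ralgapa2, a GTPase-activating subunit for Ral, averaged 8.03 ± 0.31 in KO and 6.58 ± 0.24 in WT tumors (1.44, adjusted p = 0.0123; SD, n = 4 each). The mitochondrial carbonic anhydrase Car5b (1.73, adjusted p = 0.0451), the chromatin protein Cecr2 (1.27, adjusted p = 0.0363), Lrrc36 (1.26, adjusted p = 0.0353) and the membrane protein Susd2 (1.21, adjusted p = 0.0455) completed the 12.

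Of these 12 calls, 4 (C4b, Dpyd, Adrbk2 and Fas) kept an adjusted p under 0.05 whichever array was left out, with a highest value of 0.0452 for each. Ppp1r3c lost it without untreated KO replicate 1 (0.0538), and Ralgapa2 without that array or either irradiated WT array (up to 0.0635). Scd1 lost it without either untreated KO array, either irradiated WT array or untreated WT replicate 1 (up to 0.0904). Atp2a3, Car5b, Lrrc36 and Susd2 kept it only without irradiated KO replicate 1 or 2 (otherwise up to 0.143, 0.168, 0.135 and 0.168), and Cecr2 only without irradiated KO replicate 1 (otherwise up to 0.144). Of the 71 higher genes at 2-fold or more without overlap, 30 (42.3%) had irradiated KO replicate 1 at least 1 log2 unit above the other KO arrays, against 4.92% of all genes. Among them was Lep, the fat hormone leptin, with 9.06, 3.91, 3.99 and 4.39 in the KO arrays and 3.82, 3.74, 3.64 and 3.46 in the WT arrays (1.67, adjusted p = 0.445). Of the 47 higher genes that also passed the adjusted threshold, 3 (6.38%) had this pattern.

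Genes of the G2 phase and of mitosis, which carry a cell from replicated DNA to division, were lower in KO almost as a whole. Of 34 measured members of the list, 30 (88.2%) had all KO arrays below all WT arrays, against 6.14% of all genes, and 0 had them above. At an adjusted p under 0.05, 32 fell, against 1.66% of all genes, and their median log2 fold change was -1.35, against 0.02 over all genes. The mean level of the list was 5.49 and 5.59 in the irradiated KO arrays and 6.27 and 6.30 in the untreated KO arrays, against 6.92 and 6.75 in the irradiated WT arrays and 7.88 and 7.45 in the untreated WT arrays. The 4 groups were thus ordered irradiated KO, untreated KO, irradiated WT and untreated WT with no overlap between KO and WT, and each irradiated pair was below its untreated pair. Within the irradiated tumors alone, both KO arrays were below both WT arrays in 33 of the 34 genes (22.6% of all genes), and within the untreated tumors alone in 34 (24.4% of all genes). Leaving out irradiated KO replicate 1 gave a median of -1.31.

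The members span the steps of division. Birc5, survivin, which guides the chromosomal passenger complex and blocks cell death, had log2 levels of 5.21 and 4.73 in the irradiated KO arrays and 5.55 and 5.97 in the untreated KO arrays, against 7.55 and 7.14 in the irradiated WT arrays and 8.93 and 8.31 in the untreated WT arrays. The highest KO array was more than 1 log2 unit below the lowest WT array (log2 fold change -2.62, SE 0.21, adjusted p = 0.00431, 6.14-fold lower). Prc1, which bundles microtubules of the midzone, had 5.71 and 6.11 in the irradiated KO arrays and 6.68 and 6.70 in the untreated KO arrays, against 7.96 and 7.61 in the irradiated WT arrays and 8.57 and 8.13 in the untreated WT arrays (log2 fold change -1.77, SE 0.16, adjusted p = 0.00488). Cdc25c, the phosphatase that switches on Cdk1, had 4.29 and 4.95 in the irradiated KO arrays and 5.22 and 5.35 in the untreated KO arrays, against 6.59 and 6.29 in the irradiated WT arrays and 7.62 and 6.92 in the untreated WT arrays (log2 fold change -1.90, SE 0.20, adjusted p = 0.00674). In all of these the untreated WT arrays were highest and the irradiated KO arrays lowest or near it.

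The direction was the same in kinases, motors and destruction factors. Bub1, a kinase of the spindle checkpoint, averaged 4.47 ± 0.52 in KO and 6.03 ± 0.63 in WT tumors (SD, n = 4 each, log2 fold change -1.55, SE 0.15, adjusted p = 0.00621), and the motor Kif20a, which works in cytokinesis, 5.91 ± 0.41 in KO and 7.37 ± 0.34 in WT tumors (log2 fold change -1.46, SE 0.13, adjusted p = 0.00458). The kinase genes Plk1 (-1.11, adjusted p = 0.00625), Aurkb (-1.34, adjusted p = 0.0066), Aurka (-1.12, adjusted p = 0.0137) and the Cdk1 inhibitor Wee1 (-1.16, adjusted p = 0.0128) fell too. So did the anaphase activator Cdc20 (-1.38, adjusted p = 0.00928), the ubiquitin-conjugating enzyme Ube2c (-1.52, adjusted p = 0.0148), the kinetochore motor Cenpe (-1.68, adjusted p = 0.00699) and the proliferation marker Mki67 (-1.45, adjusted p = 0.00756). Top2a, the topoisomerase that untangles chromosomes, fell by 1.45 (adjusted p = 0.00746) although its arrays overlapped, with 5.92, 6.36, 7.48 and 7.57 in the KO arrays and 7.54, 7.47, 9.35 and 8.77 in the WT arrays. Untreated KO and irradiated WT arrays were level there. Birc5, Prc1, Bub1, Kif20a and Cdc25c kept their call whichever array was left out. The named genes of this list were chosen by smallest p.

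Genes of DNA replication pointed the same way with smaller differences. All 37 measured members had a negative difference, with a median of -0.69, and 10 (27.0%, against 6.14% of all genes) were below WT in all KO arrays. By the adjusted p, 11 fell (1.66% of all genes) and 0 rose. Within the untreated tumors both KO arrays were below both WT arrays in all 37 (24.4% of all genes), and within the irradiated tumors in 29 (22.6%). Tk1, thymidine kinase, which salvages thymidine for DNA, had 5.53 and 6.16 in the irradiated KO arrays and 6.56 and 6.48 in the untreated KO arrays, against 7.50 and 7.67 in the irradiated WT arrays and 8.61 and 8.16 in the untreated WT arrays (log2 fold change -1.80, SE 0.17, adjusted p = 0.00621). The highest KO array was an untreated one and the lowest WT array an irradiated one, well apart. The helicase subunits Mcm3 and Mcm5 averaged 5.75 ± 0.32 in KO and 6.97 ± 0.69 in WT tumors and 6.12 ± 0.34 in KO and 7.29 ± 0.64 in WT tumors (SD, n = 4 each; adjusted p = 0.0185 and 0.0217), and the polymerase Pole 5.21 ± 0.44 in KO and 6.30 ± 0.71 in WT tumors (adjusted p = 0.0114). Tk1 kept its call whichever array was left out, while Pole lost it without untreated KO replicate 1 or 2 (0.0683 and 0.0572). Mcm3 and Mcm5 lost theirs without these arrays (up to 0.102), and also without irradiated WT replicate 2, with Mcm3 at 0.0583 without untreated WT replicate 2 and Mcm5 at 0.0744 without irradiated WT replicate 1. Mcm2, Mcm4 and Mcm6 fell with overlapping arrays (adjusted p = 0.0353, 0.0465 and 0.0142).

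**Figure D2:**
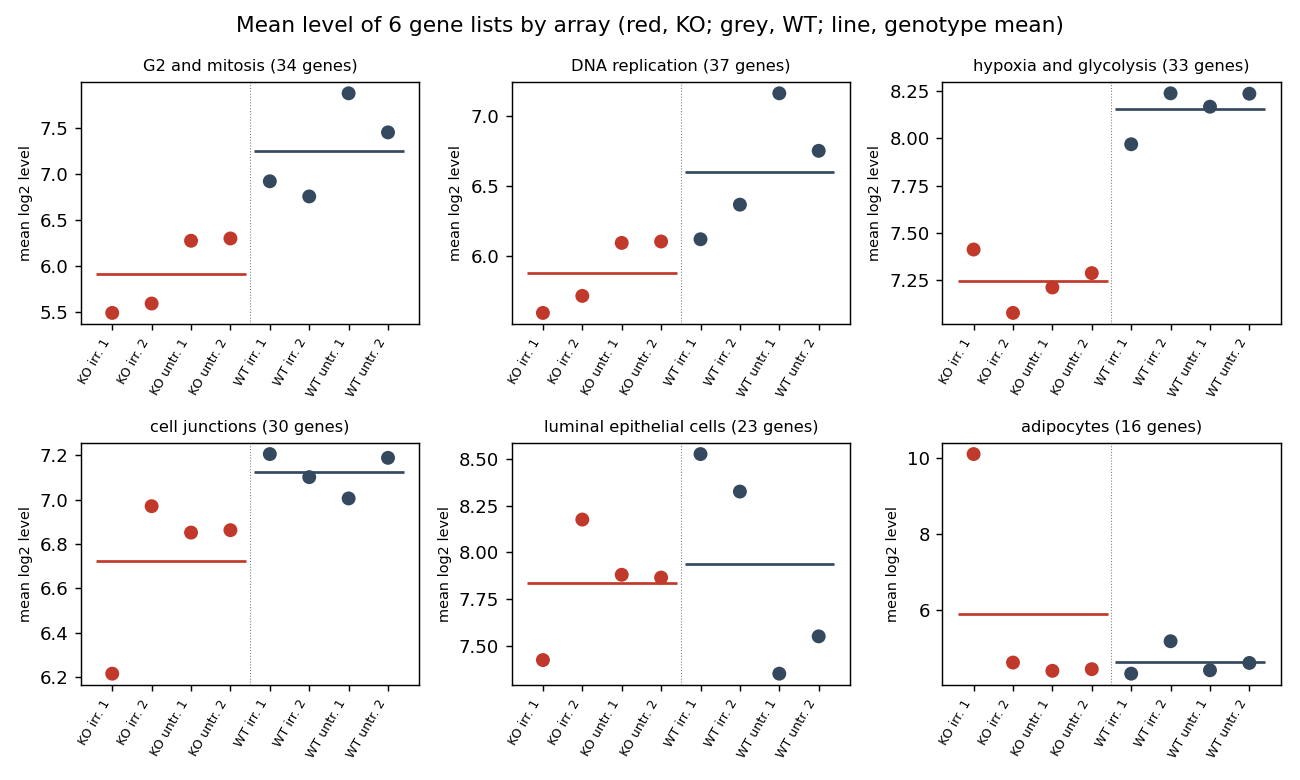
Mean log2 level of the measured members of 6 lists in each array (x axis, KO left of WT; red, KO; dark grey, WT; horizontal line, mean of the 4 arrays of a genotype; y axes differ between panels). KO and WT arrays are apart for G2 and mitosis (5.49 to 6.30 against 6.75 to 7.88) and for hypoxia and glycolysis (7.08 to 7.41 against 7.97 to 8.24). They nearly touch for cell junctions (6.21 to 6.97 against 7.0 to 7.21) and for DNA replication (5.60 to 6.11 against 6.12 to 7.16), and overlap for luminal markers. Adipocyte markers reach 10.1 in 1 KO array and are 4.31 to 5.17 in the other 7 arrays.

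Genes that low oxygen induces, and those of glycolysis, which turns glucose into lactate, were lower in KO in both treatments. Of 33 measured members, 18 (54.5%) had all KO arrays below all WT arrays, against 6.14% of all genes, and 0 had them above. At an adjusted p under 0.05, 13 fell, against 1.66% of all genes, and 0 rose. The median was -0.90, with -1.01 in irradiated and -0.88 in untreated tumors, and -0.95 without irradiated KO replicate 1. The mean level of the list was 7.41 and 7.08 in the irradiated KO arrays and 7.21 and 7.29 in the untreated KO arrays, against 7.97 and 8.24 in the irradiated WT arrays and 8.17 and 8.24 in the untreated WT arrays. In contrast to the mitotic list, the KO arrays lay close together whatever the treatment, and so did the WT arrays, with standard deviations of 0.14 and 0.13 within a genotype.

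Within this list, the transporters of sugar and lactate showed the widest gaps between the genotypes. Slc2a1, the glucose transporter GLUT1, had log2 levels of 7.17 and 7.76 in the irradiated KO arrays and 7.35 and 7.34 in the untreated KO arrays, against 9.34 and 9.51 in the irradiated WT arrays and 9.01 and 9.37 in the untreated WT arrays. All WT arrays were at or above 9.01 and all KO arrays at or below 7.76 (log2 fold change -1.90, SE 0.16, adjusted p = 0.00458, 3.74-fold lower). Slc16a3, the lactate exporter MCT4, had 5.23 and 5.31 in the irradiated KO arrays and 5.17 and 4.94 in the untreated KO arrays, against 6.74 and 7.02 in the irradiated WT arrays and 6.74 and 6.97 in the untreated WT arrays (log2 fold change -1.70, SE 0.13, adjusted p = 0.00431). Both genotypes were tight, at SDs of 0.16 and 0.15. Of the glycolytic enzymes, Pgk1, phosphoglycerate kinase, had 9.14 and 8.66 in the irradiated KO arrays and 8.83 and 9.04 in the untreated KO arrays, against 10.17 and 10.65 in the irradiated WT arrays and 10.22 and 10.09 in the untreated WT arrays (log2 fold change -1.36, SE 0.17, adjusted p = 0.00886), and Pfkp (-1.19, adjusted p = 0.0128), Tpi1 (-0.80, adjusted p = 0.0266) and Gapdh (-0.99, adjusted p = 0.0303) fell too. Pkm (-0.90, adjusted p = 0.0638), Gpi1 (-0.54, adjusted p = 0.0777) and Pgam1 (-0.51, adjusted p = 0.0992) had no overlap and did not pass the adjusted threshold.

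Other oxygen-responsive members moved alike. Ero1l, an oxidase that forms disulfide bonds in new proteins, had 7.67 and 7.17 in the irradiated KO arrays and 7.64 and 7.89 in the untreated KO arrays, against 8.75 and 9.34 in the irradiated WT arrays and 9.97 and 9.51 in the untreated WT arrays, lower in each KO array (log2 fold change -1.80, SE 0.20, adjusted p = 0.00699). The collagen-modifying enzyme Plod2 (-1.30, adjusted p = 0.0246), the oxygen-sensing hydroxylase Egln3 (-1.32, adjusted p = 0.027) and the stress-response gene Ndrg1 (-1.14, adjusted p = 0.0416) fell as well. The acid-regulating enzyme Car9 fell by 1.33 (adjusted p = 0.0124) with overlap, at 5.39, 6.11, 7.03 and 6.69 in the KO arrays and 6.95, 7.01, 8.18 and 8.42 in the WT arrays, and its levels were lower in irradiated than in untreated tumors of each genotype. Slc2a1, Slc16a3 and Ero1l kept their call whichever array was left out, and Pgk1 lost it without untreated KO replicate 1 (0.0558). Ldha, the lactate-forming enzyme, which the list of Myc targets holds too, had 6.68, 7.18, 7.23 and 7.52 in the KO arrays and 8.33, 8.68, 7.55 and 7.90 in the WT arrays and did not pass (-0.96, adjusted p = 0.13).

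Promoter sequences are shown for 2 members of each of these lists, from among the 4 with the smallest p, since the members moved together. Each run is the 250 bases before an annotated start, on the plus strand of GRCm38.p6, from RefSeq. Capitals mark CCAAT and TTTGAA, the sequences bound in many mitotic promoters, in the promoters of Birc5 (chr11:117848987-117849236) and Prc1 (chr7:80294201-80294450), and ACGTG or GCGTG, the core of the hypoxia response element, in those of Slc16a3 (chr11:120948817-120949066) and Slc2a1 (chr4:119108495-119108744), each on either strand. Birc5 has no match to the first pair of sequences in this window. Prc1 has another annotated start, which is not shown.
Birc5: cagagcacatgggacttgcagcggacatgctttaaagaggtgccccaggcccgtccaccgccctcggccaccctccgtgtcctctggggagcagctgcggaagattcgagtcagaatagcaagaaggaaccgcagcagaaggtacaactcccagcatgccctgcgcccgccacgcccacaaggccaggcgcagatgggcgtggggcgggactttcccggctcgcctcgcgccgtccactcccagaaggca
Prc1: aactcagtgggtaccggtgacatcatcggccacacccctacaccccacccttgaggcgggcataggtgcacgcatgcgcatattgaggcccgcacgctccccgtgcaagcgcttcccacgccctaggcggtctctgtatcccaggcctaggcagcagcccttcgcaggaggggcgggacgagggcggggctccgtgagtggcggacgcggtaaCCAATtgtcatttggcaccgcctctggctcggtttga
Slc16a3: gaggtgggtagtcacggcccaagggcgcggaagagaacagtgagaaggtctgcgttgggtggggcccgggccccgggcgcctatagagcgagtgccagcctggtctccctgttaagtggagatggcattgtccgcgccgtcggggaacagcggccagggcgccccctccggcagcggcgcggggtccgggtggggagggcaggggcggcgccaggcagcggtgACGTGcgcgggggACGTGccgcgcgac
Slc2a1: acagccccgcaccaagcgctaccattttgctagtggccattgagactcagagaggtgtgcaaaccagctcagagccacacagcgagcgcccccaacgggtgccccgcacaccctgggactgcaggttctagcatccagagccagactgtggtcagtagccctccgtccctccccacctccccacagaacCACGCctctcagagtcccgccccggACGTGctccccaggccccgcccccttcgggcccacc
Of the 27 promoters that the table holds for 25 of the 30 lower mitotic genes, 20 (74.1%) held CCAAT, against 33.8% of all 32851 promoters, and 10 (37.0%) held TTTGAA, against 16.0%. ACGTG or GCGTG stood in 20 of these 27 (74.1%), against 38.6% of all. Of the 17 promoters of 14 of the 18 lower hypoxia and glycolysis genes, 13 (76.5%) held ACGTG or GCGTG, 6 (35.3%) CCAAT and 3 (17.6%) TTTGAA. These counts cover the same 250 bases before the start, so a match at or past the start was not counted. None of the searched sequences contains another, and a match is a description of letters, not of binding.

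**Figure D3:**
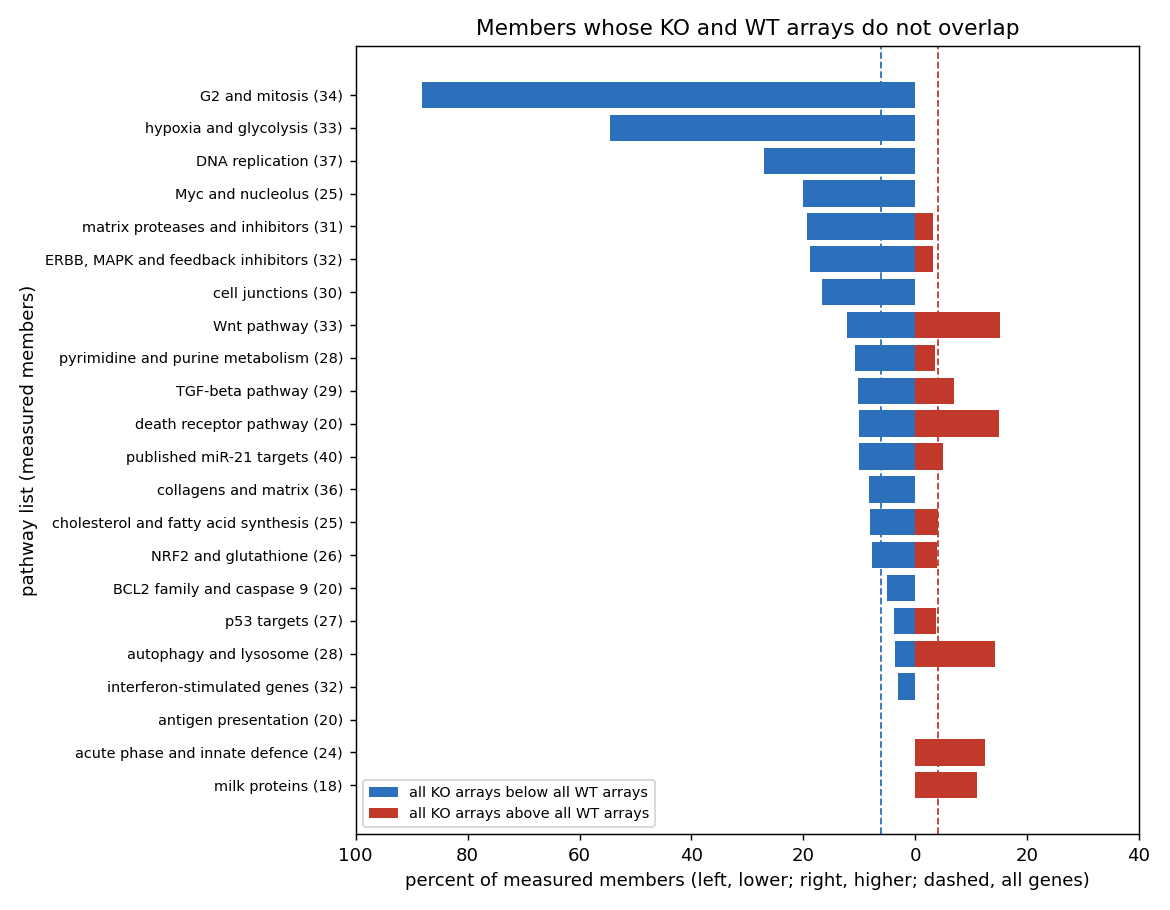
Percent of the measured members of each pathway list (number in brackets) whose KO arrays all lie below (blue, to the left) or all above (red, to the right) the WT arrays. Dashed lines give the same shares over all genes, 6.14% and 4.13%. The G2 and mitosis list reaches 88.2% and the hypoxia and glycolysis list 54.5%, and neither has a member above.

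Junction genes, which seal and bind epithelial cells, had 5 of 30 members (16.7%, against 6.14% of all genes) below WT in all KO arrays and 0 above. Their median was -0.38. Cldn1, a claudin of tight junctions, had 7.67 and 8.16 in the irradiated KO arrays and 7.81 and 7.85 in the untreated KO arrays, against 10.63 and 10.53 in the irradiated WT arrays and 9.64 and 10.14 in the untreated WT arrays. KO arrays reached at most 8.16 and WT arrays at least 9.64 (log2 fold change -2.36, SE 0.19, adjusted p = 0.00431, 5.14-fold lower), and this call held whichever array was left out. Cldn4, another claudin, had 7.38, 7.79, 7.66 and 7.55 in the KO arrays and 9.06, 8.92, 8.04 and 8.88 in the WT arrays (log2 fold change -1.13, SE 0.22, adjusted p = 0.0429), and lost the call without 6 of the arrays (up to 0.139), keeping it only without irradiated KO replicate 1 or untreated WT replicate 1. Junction plakoglobin Jup (-0.62, adjusted p = 0.0557), the desmosomal Pkp2 (-0.56, adjusted p = 0.0862) and the tight junction protein Ocln (-0.76, adjusted p = 0.257) lay below WT in all KO arrays and did not pass. The mean of the list was 6.21, 6.97, 6.85 and 6.86 in the KO arrays and 7.21, 7.10, 7.0 and 7.19 in the WT arrays, lowest in irradiated KO replicate 1. Without that array the median was -0.18.

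Luminal epithelial markers gave a mixed account. Of 23 measured, 5 (21.7%, against 6.14% of all genes) lay below WT in all KO arrays. These were Cldn4, the keratins Krt8 (-0.84, adjusted p = 0.197) and Krt18 (-1.0, adjusted p = 0.113), the retinal dehydrogenase Aldh1a3 (-1.37, adjusted p = 0.0501) and the receptor Kit (-1.27, adjusted p = 0.211). Csn2, a milk protein, rose with overlap and is described with the milk genes. Krt18 had 8.37, 9.20, 9.49 and 9.55 in the KO arrays and 10.40, 10.09, 9.78 and 10.32 in the WT arrays, and the lowest of these was the array with high adipocyte markers, whose part in the difference was not tested. Without it the median of the list was -0.10, against -0.43 with it. Basal markers had 2 of 15 members (13.3%, against 4.13% of all genes) above WT and 0 below. The 2 were the stem cell receptor Lgr5 (1.0, adjusted p = 0.0578) and the oxytocin receptor Oxtr (0.93, adjusted p = 0.0943). The median of the basal list was 0.13, with 0.49 in irradiated and -0.005 in untreated tumors. Its mean level overlapped between the genotypes, at 6.27, 6.56, 5.77 and 5.74 in the KO arrays and 6.18, 5.91, 5.78 and 5.95 in the WT arrays.

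Ligands and adaptors of ERBB and MAPK signaling, which convey growth factor signals to the nucleus, had a median of -0.33. Of 32 members, 6 (18.8%, against 6.14% of all genes) lay below and 1 (3.12%, against 4.13%) above. Grb2, the adaptor between receptors and Ras, had 7.45 and 7.43 in the irradiated KO arrays and 7.39 and 7.51 in the untreated KO arrays, against 8.48 and 8.62 in the irradiated WT arrays and 8.36 and 8.27 in the untreated WT arrays. Both genotypes were tight, and their arrays did not come near each other (log2 fold change -0.99, SE 0.12, adjusted p = 0.00801). Hbegf, a heparin-binding ligand of the EGF receptor, had 5.36 and 5.31 in the irradiated KO arrays and 5.97 and 5.99 in the untreated KO arrays, against 7.28 and 7.30 in the irradiated WT arrays and 6.84 and 7.58 in the untreated WT arrays (log2 fold change -1.59, SE 0.21, adjusted p = 0.0106). Its relative Tgfa (-0.80, adjusted p = 0.0746), the GTPase Nras (-0.40, adjusted p = 0.235) and the feedback inhibitors Spry2 (-0.33, adjusted p = 0.247) and Spry4 (-0.52, adjusted p = 0.143) lay below in all KO arrays and did not pass. Egf went the other way, with 4.28, 4.74, 6.58 and 6.51 in the KO arrays and 4.05, 4.18, 4.01 and 4.04 in the WT arrays, high in the untreated KO arrays (1.45, adjusted p = 0.117). Grb2 lost its call without untreated KO replicate 1 (0.0508), and Hbegf without that array or irradiated WT replicate 2 (0.052 and 0.051).

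Published targets of miR-21 had a median close to that of all genes. Over 40 measured members it was -0.02, against 0.02, and 20 of the 40 had a negative difference. Fas and the receptor Tgfbr2 (0.52, adjusted p = 0.154) lay above WT in all KO arrays, which is 5.0% of the list against 4.13% of genes. The feedback inhibitor Spry2, the kinase Map2k3 (-0.54, adjusted p = 0.101), the receptor Bmpr2 (-0.42, adjusted p = 0.189) and the tropomyosin Tpm4 (-0.46, adjusted p = 0.193) lay below. Fas was the 1 member of the 40 past the adjusted threshold, which 0.242% of all genes passed as higher in KO.

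In the death receptor pathway, 3 of 20 members (15.0%, against 4.13% of all genes) lay above and 2 (10%, against 6.14%) below. Beside Fas, these were Cflar (0.34, adjusted p = 0.238), which blocks caspase 8, and the ubiquitin ligase Birc2 (0.46, adjusted p = 0.149), which did not pass. Tnfrsf12a, the receptor of the cytokine TWEAK, had 6.56 and 6.99 in the irradiated KO arrays and 7.44 and 7.57 in the untreated KO arrays, against 8.53 and 8.44 in the irradiated WT arrays and 8.09 and 8.73 in the untreated WT arrays, and fell (log2 fold change -1.31, SE 0.22, adjusted p = 0.0271). It lost the call without irradiated KO replicate 2, either untreated KO array, either irradiated WT array or untreated WT replicate 2 (up to 0.101). The adaptor Tradd lay below and did not pass (-0.41, adjusted p = 0.174). Of 20 members of the BCL2 family and caspase 9 list, Birc5 was the 1 without overlap (5.0% below, against 6.14% of all genes). Of 27 p53 targets, 1 (3.7%), Fas, lay above and 1 (3.7%), the spindle protein Ckap2, below (-1.47, adjusted p = 0.0281), with a median of 0.02. Ckap2 kept its call only without irradiated KO replicates 1 or 2 (otherwise up to 0.11).

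Metabolic lists split by enzyme. In pyrimidine and purine metabolism (28 measured, median -0.15), the breakdown enzyme Dpyd rose, whereas Tk1 and the deoxycytidine kinase Dck (-0.79, adjusted p = 0.0488, with overlap) fell. Nt5e, an enzyme that makes adenosine outside the cell, had 6.32, 5.73, 6.15 and 6.02 in the KO arrays and 7.27, 7.57, 6.80 and 7.22 in the WT arrays, and fell, with irradiated WT highest (log2 fold change -1.16, SE 0.19, adjusted p = 0.0261). It lost the call without either untreated KO array, either irradiated WT array or untreated WT replicate 2 (up to 0.0935). Cad, which starts pyrimidine synthesis, lay below and did not pass (-0.62, adjusted p = 0.16). In cholesterol and fatty acid synthesis (25 measured, median -0.17), Scd1 rose, and Sqle, squalene epoxidase of the cholesterol pathway, had 5.90 and 6.33 in the irradiated KO arrays and 7.27 and 7.12 in the untreated KO arrays, against 7.30 and 7.37 in the irradiated WT arrays and 8.22 and 7.99 in the untreated WT arrays and fell (log2 fold change -1.07, SE 0.15, adjusted p = 0.0128). Irradiated KO arrays were lowest, and untreated KO arrays lay just under the irradiated WT arrays. The cholesterol regulator Srebf2 lay below and did not pass (-0.48, adjusted p = 0.154). Sqle lost the call without either untreated KO array, either irradiated WT array or untreated WT replicate 1 (up to 0.0594), and Scd1 lost its call without the same 5 arrays (up to 0.0904).

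Acute phase and innate genes had 3 of 24 members (12.5%, against 4.13% of all genes) above WT and 0 below. Saa2, a serum amyloid protein that the liver and inflamed epithelia secrete, had log2 levels of 9.82 and 10.81 in the irradiated KO arrays and 8.65 and 8.79 in the untreated KO arrays, against 6.27 and 6.24 in the irradiated WT arrays and 6.77 and 5.78 in the untreated WT arrays, the largest rise among all genes without overlap (log2 fold change 3.25, SE 0.38, adjusted p = 0.00794, 9.53-fold higher). It rests on 2 probe sets, and Saa1, a near-identical gene, may share its signal, so the 2 cannot be told apart. C4b rose as given above, and Crp lay above at a very low level (0.34, adjusted p = 0.166). The list median was -0.15, and 14 of the 24 members had a negative difference.

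Markers of immune cells were mixed. Of 20 macrophage markers, 1 (5.0%, against 4.13% of all genes) lay above and 1 (5.0%, against 6.14%) below. Among 20 macrophage markers, Apoe, the lipid carrier, had 8.72 and 8.50 in the irradiated KO arrays and 7.42 and 7.40 in the untreated KO arrays, against 7.26 and 7.34 in the irradiated WT arrays and 6.78 and 6.63 in the untreated WT arrays. Irradiated KO arrays were highest, and the untreated KO arrays lay just above the irradiated WT arrays (log2 fold change 1.01, SE 0.15, adjusted p = 0.0201). Cd14, a receptor for bacterial lipopolysaccharide, had 7.57, 8.63, 8.10 and 7.93 in the KO arrays and 9.60, 9.40, 9.34 and 8.76 in the WT arrays, with the opposite order (-1.22, adjusted p = 0.0506). Apoe lost its call without either untreated KO array, either irradiated WT array or untreated WT replicate 2 (up to 0.076). Of T and NK cell markers, 1 of 16 (6.25%) lay above, Cd2 (0.42, adjusted p = 0.134). Of B and plasma cell markers 1 of 8 (12.5%) lay below, Sdc1 (-0.35, adjusted p = 0.231), and of neutrophil markers 1 of 17 (5.88%), Il1r2 (-0.77, adjusted p = 0.281). Of 14 skeletal muscle markers, 1 (7.14%), Myh4, lay below (-1.07, adjusted p = 0.303). In erythroid, nerve and antigen presentation lists 0 of 3, 0 of 6 and 0 of 20 members were without overlap.

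Of 18 measured milk protein genes, 2 caseins rose past the adjusted threshold, as did 0.242% of all genes, with overlapping arrays. The median of the list was 0.45, with 0.75 in untreated and -0.09 in irradiated tumors. Csn2, beta-casein, had 11.90 and 12.74 in the irradiated KO arrays and 8.93 and 8.77 in the untreated KO arrays, against 10.78 and 10.17 in the irradiated WT arrays and 2.32 and 3.89 in the untreated WT arrays (log2 fold change 3.80, SE 0.76, adjusted p = 0.0489), and Csn1s2a, another casein, 9.40 and 11.22 in the irradiated KO arrays and 5.12 and 5.25 in the untreated KO arrays, against 5.43 and 6.92 in the irradiated WT arrays and 3.23 and 3.20 in the untreated WT arrays (log2 fold change 3.05, SE 0.56, adjusted p = 0.0358). In both, irradiated WT arrays reached or passed the untreated KO arrays, while KO exceeded WT within each treatment. Both genes were singled out after their values were seen. Of the 18 measured members, 16 had both KO arrays above both WT arrays in untreated tumors (27.7% of all genes) and 0 had them below. In irradiated tumors 5 had both KO arrays above (18.9% of all genes) and 6 had them below (22.6% of all genes). Cel (1.06, adjusted p = 0.198), a lipase of milk, and Stat5b (0.16, adjusted p = 0.522), a transcription factor downstream of prolactin, lay above without overlap, 11.1% of the list against 4.13% of all genes.

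The share below WT was near that of all genes for matrix genes and larger for protease genes. Of 36 collagen and matrix genes, 3 (8.33%, against 6.14% of all genes) lay below, Thbs1, Tnc and Lox. The median of this list was 0.27 in irradiated and -0.44 in untreated tumors. Thbs1, thrombospondin, which inhibits vessel growth, had 8.79 and 8.77 in the irradiated KO arrays and 8.93 and 9.19 in the untreated KO arrays, against 10.12 and 10.38 in the irradiated WT arrays and 9.80 and 10.73 in the untreated WT arrays (log2 fold change -1.34, SE 0.21, adjusted p = 0.0212), and lost the call without either untreated KO array, either irradiated WT array or untreated WT replicate 2 (up to 0.0995). Tnc, the matrix protein tenascin, averaged 6.24 ± 0.98 in KO and 8.15 ± 0.25 in WT tumors (SD, n = 4 each), with a wide spread in KO, and did not pass (adjusted p = 0.0755), nor did the collagen cross-linker Lox (-0.63, adjusted p = 0.0989). Of 31 proteases and inhibitors, 6 (19.4%, against 6.14% of all genes) lay below and 1 (3.23%, against 4.13%) above. Their median was 0.115 in irradiated and -0.36 in untreated tumors. The urokinase receptor Plaur (log2 fold change -1.12, SE 0.18, adjusted p = 0.0252) and the aggrecan-cutting Adamts4 (log2 fold change -1.11, SE 0.20, adjusted p = 0.0324) fell. Both kept the call only without irradiated KO replicates 1 or 2 (otherwise up to 0.112 and 0.109). Mmp14 (-0.99, adjusted p = 0.0933), Adamts1 (-2.01, adjusted p = 0.0891), Adam17 (-0.46, adjusted p = 0.128) and Timp1 (-1.08, adjusted p = 0.0602) lay below and did not pass, and Mmp7 lay above (0.38, adjusted p = 0.21).

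In the TGF-beta list, the secreted factor Ctgf, a target of several growth pathways, had 6.07 and 6.43 in the irradiated KO arrays and 6.26 and 6.42 in the untreated KO arrays, against 7.47 and 7.30 in the irradiated WT arrays and 7.02 and 7.79 in the untreated WT arrays, and fell (log2 fold change -1.10, SE 0.18, adjusted p = 0.0271). It lost the call without either untreated KO array, either irradiated WT array or untreated WT replicate 2 (up to 0.116). The co-receptor Tgfbr3 (1.04, adjusted p = 0.144) and Tgfbr2 lay above, and Bmpr2 and the repressor Skil (-0.90, adjusted p = 0.205) below. Of 29 measured members, 2 (6.9%, against 4.13% of all genes) lay above and 3 (10.3%, against 6.14%) below, Ctgf among them. The Wnt list had members on both sides, 5 of 33 above (15.2%, against 4.13% of all genes) and 4 below (12.1%, against 6.14%). Each was short of the adjusted threshold: Wnt4 (0.63, adjusted p = 0.0896), Wnt10b (0.37, adjusted p = 0.189), Axin2 (0.67, adjusted p = 0.292), Dkk3 (0.46, adjusted p = 0.146) and Lgr5 above, and Fzd2 (-0.63, adjusted p = 0.103), Ctnnb1 (-0.37, adjusted p = 0.177), Tcf7 (-0.39, adjusted p = 0.243) and Ccnd1 (-0.87, adjusted p = 0.118) below.

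Of 25 Myc and nucleolar genes, 22 had a negative difference, as did 10914 of all 23152 genes. In all KO arrays 5 of the 25 lay below, against 6.14% of all genes, and 0 lay above. The ribosome factor Nop56 fell (log2 fold change -0.77, SE 0.15, adjusted p = 0.0452), keeping the call only without irradiated KO replicates 1 or 2 (otherwise up to 0.16), and Odc1 (-0.72, adjusted p = 0.0656), Dkc1 (-1.22, adjusted p = 0.143), Cad and Ldha did not pass. The list mean was 6.97, 6.93, 7.07 and 7.07 in the KO arrays and 7.08, 7.26, 7.54 and 7.46 in the WT arrays, without overlap. Of 28 autophagy and lysosome genes, 4 (14.3%, against 4.13% of all genes) lay above and 1 (3.57%, against 6.14%) below. Above were the conjugating enzyme Atg3 (0.61, adjusted p = 0.102), the activating enzyme Atg7 (0.54, adjusted p = 0.194) and the proteases Ctsl (0.58, adjusted p = 0.187) and Ctsa (0.31, adjusted p = 0.286), and below was Atg4b (-0.21, adjusted p = 0.418). Of 26 NRF2 and glutathione genes, Gsta4 (1.37, adjusted p = 0.103) lay above (3.85%) and Gsr (-0.70, adjusted p = 0.0668) and Gclc (-0.23, adjusted p = 0.374) below (7.69%), shares close to those of all genes. Of 32 interferon-stimulated genes, 1 (3.12%, against 6.14% of all genes), Cxcl10, lay below (-0.52, adjusted p = 0.198).

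Families were also counted by symbol, a choice made after the values were seen. Of 21 nucleoporin genes (Nup and a number), which build the nuclear pore, 11 lay below WT in all KO arrays, 0 above, and all 21 had a negative difference (median -0.49). Of 43 kinesin genes, 11 lay below, among them the mitotic Kif11, Kif15 and Kif18a, and 3 above. Of 30 Mediator subunits, 8 lay below and 0 above (median -0.19), of 14 proteasome subunits of the Psmd series 5 and 0 (-0.18), and of 58 translation initiation factor genes 13 and 2 (-0.22). Of 20 carboxylesterase genes 0 lay below and 4 above (0.16), of 367 zinc finger genes of the Zfp series 17 and 13 (-0.04), and of 1098 olfactory receptor genes 6 and 27 (0.05). Over all genes 6.14% lay below and 4.13% above. Of the 11576 genes above the median level, 1234 lay below and 416 above. The families were not matched to other genes by level, so the part of level in their counts was not tested.

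The irradiated and the untreated comparison share no array, so each can be set beside the other. Of 549 genes that were at least 2-fold lower in untreated KO tumors without overlap (2.37% of genes), 412 (75.0%) were also lower on average in irradiated KO tumors, as were 50.4% of all genes, and 169 were at least 2-fold lower there without overlap (2.75% of genes). Of 262 genes at least 2-fold higher in untreated KO tumors (1.13%), 149 (56.9%) were higher in irradiated KO tumors, against 49.6% of all genes, and 29 met the same rule there (1.74% of genes), while 26 met it in the opposite direction. Among the 549 lower genes, 9 did so. Across all genes the 2 differences correlated at r = 0.21, a description over genes that are not independent replicates.

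**Figure D4:**
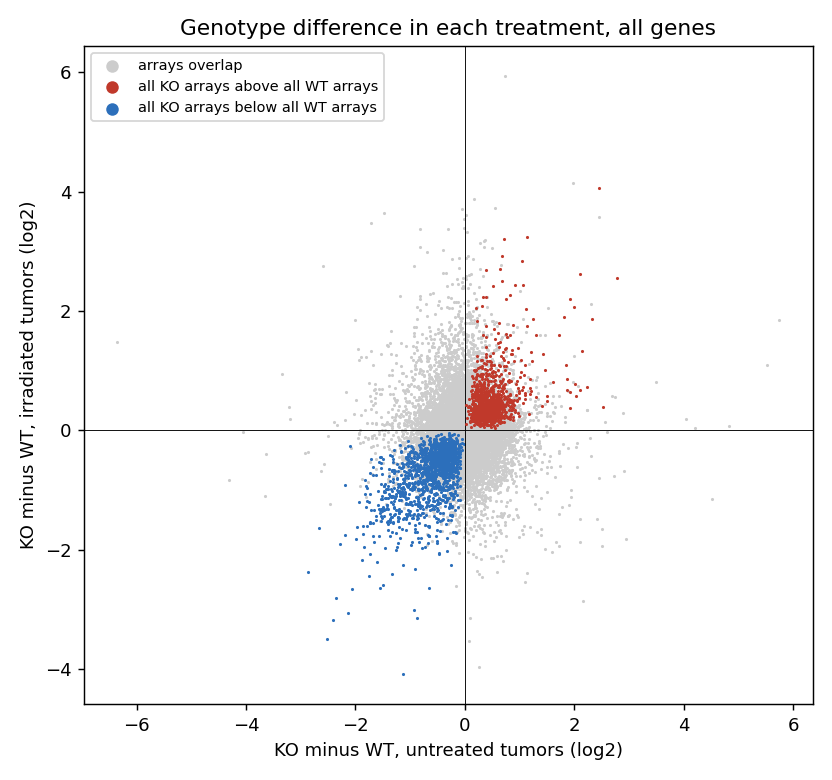
Genotype difference (KO minus WT, log2) of every gene in untreated tumors (x axis) and in irradiated tumors (y axis). Blue, all 4 KO arrays below all 4 WT arrays (1421 genes); red, all above (957 genes); grey, overlapping. By construction, blue and red genes lie in the lower left and upper right, and their means over both treatments run between -3.0 and 3.25.

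A test of the difference between treatments called 1 gene (0.00432%). Npy, the gene of neuropeptide Y, had log2 levels of 5.79 and 6.36 in the irradiated KO arrays and 8.30 and 8.46 in the untreated KO arrays, against 8.10 and 7.70 in the irradiated WT arrays and 5.47 and 5.40 in the untreated WT arrays. KO exceeded WT in untreated tumors by 2.95 and was below it in irradiated tumors by 1.82 (interaction -4.77, adjusted p = 0.0257). The genes without overlap had an interaction p under 0.05 in 3.45% of the higher and 6.69% of the lower class, against 8.03% of all genes, and the rule itself leaves little room for a change of sign. The count of genes with a differing effect was 125 without irradiated KO replicate 1 and 2523 without irradiated KO replicate 2, and 0 without each of the other 6 arrays.

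By position, lower genes were not spread evenly. On chromosome 11, 12.1% of 1723 genes lay below WT in all KO arrays, against 2.66% on chromosome 3 and 7.95% on chromosome 18, the extremes among the other chromosomes. Of these 208 genes, 107 lay at the end of chromosome 11, between Cpsf4l and B3gntl1 in the gene order of GRCm38.p6. The borders of this run were taken from an earlier analysis of the same arrays, so its counts describe the run and are no test of it. Within it, 107 of 205 genes (52.2%) lay below and 2 above, with 73 falls at the adjusted threshold and a median of -0.59. The rest of chromosome 11 had 6.65% of 1518 genes below (median 0.01). Of the 50 genes nearest Mir21a, 7 (14.0%) lay below and 2 (4.0%) above, with 2 falls at the adjusted threshold. Birc5, Tk1, Slc16a3, Itgb4 and Grb2 lie in the distal run, and the part of position in their falls was not tested. Outside it, 1314 genes (5.73%) lay below and 955 (4.16%) above. Of the G2 and mitosis, DNA replication, and hypoxia and glycolysis lists, 1 member each (Birc5, Tk1 and Slc16a3) lies in the run.

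**Figure D5:**
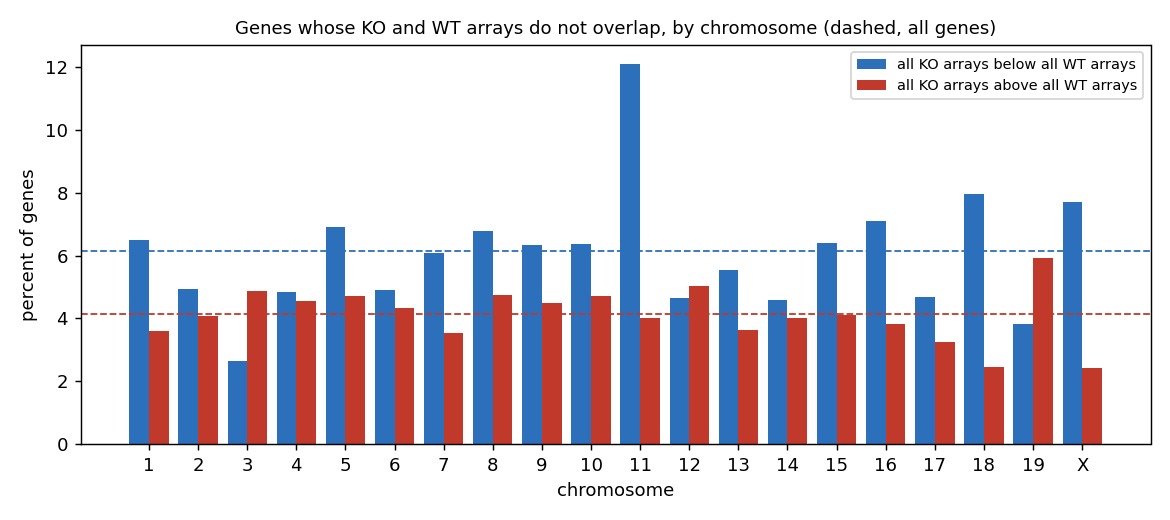
Percent of the genes of each chromosome whose KO arrays all lie below (blue, left bar) or all above (red, right bar) the WT arrays. Dashed lines give the shares over all genes, 6.14% and 4.13%. Chromosome 11 stands at 12.1% below, and higher genes range between 2.42% on the X chromosome and 5.92% on chromosome 19.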

How the data were processed

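RNA of 8 primary tumor samples was measured on Affymetrix Mouse Gene 2.0-ST arrays, 1 array a sample. The authors summarised the arrays with Affymetrix Expression Console 1.4 by RMA, which corrects background, normalizes by quantiles and gives log2 values, and deposited 1 table of log2 levels for 269751 probe set rows. The submitters' processing notes also name Transcriptome Analysis Console 3.1. The table was used as deposited, and 0 columns of per-sample values were left out. Of its rows, 233753 name 1 gene symbol, 5139 several and 30859 none. A gene's level is the mean of its rows with that single symbol, which gave 23152 genes with a median of 8 rows, 2319 of them with 1.

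limma 3.58.1 in R 4.3.3 fitted genotype with treatment as covariate (lmFit, eBayes) over all genes and 8 arrays, with Benjamini-Hochberg adjustment, and 1 mean per group for the effects by treatment and their difference. The probe set of Mir21 was compared by an exact permutation test. No filter on low values was set. The code was tested on simulated data. Tables were made with Python 3.11.15, pandas 2.3.3 and numpy 2.4.6, and figures with matplotlib 3.10.9.

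Named genes are, per direction, the 12 largest changes past the adjusted threshold without overlap and with at least 3 probe sets (predicted genes, small RNAs, receptor and immunoglobulin families passed over), Vmp1 and Fas, up to 4 members without overlap per list by smallest p, and those at the edge of the rule. Some other members without overlap or past the adjusted threshold are given as examples with their list, chosen after their values were seen. The members and the 34 lists (794 symbols, 744 measured), 12 of cell types and 22 of pathways, were chosen with earlier results of these data known. Alternatives changed the model, variance estimate, weights, filter, normalization, summary and samples. The number of arrays limits the precision.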

Additional observations from a re-analysis of the deposited data

Results flagged for a closer look

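In 21 of 266 groups of 4 arrays, an array's gap to the next one, as a share of the group's range, passed Dixon's critical value for 4 values, which chance does in about 1 group of 20. Replicate 1 of the irradiated KO tumors gave 12 of the 21. Among list means it stood apart from the other KO arrays for adipocyte markers (0.962), endothelial markers (0.903), NRF2 and glutathione genes (0.932) and cell junctions (0.842). Among genes it did so for Lep (0.905), Pdgfra (0.96), Dpyd (0.851), Atp2a3 (0.834), Timp1 (0.907), Ccnd1 (0.923), Gsta4 (0.846) and Atg7 (0.928).

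Replicate 2 of the irradiated KO tumors stood apart for milk protein genes (0.937), the death receptor list (0.878) and Adamts1 (0.864), and replicate 1 of the untreated KO tumors for Sdc1 (0.924). Among WT arrays, untreated replicate 1 stood apart for neutrophil markers (0.856), erythroid markers (0.901) and Il1r2 (0.96), and untreated replicate 2 for endothelial markers (0.848) and Plvap (0.876). Npy had a genotype effect that differed between the treatments, with an interaction of -4.77 on the log2 scale.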

How the results depend on the processing

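Lower genes outnumbered higher ones by each of the 3 rules under every alternative run. Without moderation of the variances the adjusted threshold was passed by 34 lower and 4 higher genes, against 385 and 56. Without the treatment covariate it was 159 and 18, with the median of a gene's probe sets in place of the mean 236 and 29, and with array weights, in which irradiated KO replicate 1 had a weight of 0.249, 637 and 217. Among genes above the median level, 416 were without overlap and higher, and 68 were higher at 2-fold, against 957 and 105, fewer genes being tested. With the median of the probe sets 165 were higher at 2-fold. Leaving out 1 array at a time gave 62 to 754 lower and 5 to 361 higher genes at the adjusted threshold, 332 to 407 and 98 to 255 at 2-fold, and 1742 to 2060 and 1284 to 1988 without overlap. The 255 higher genes at 2-fold were reached without irradiated KO replicate 2, and the 1988 without overlap without irradiated KO replicate 1 (1510 and 1444 without irradiated KO replicate 2 and irradiated WT replicate 1). The genes with a differing effect numbered 0 without moderation, 5 with a variance trend and robust estimation, 6 among genes with at least 3 probe sets, and 0 to 2523 with 1 array left out. The cause of these changes was not tested.

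Same-numbered arrays did not deviate together (correlations of their deviations -0.133 to 0.0418), so the numbers do not pair the samples. With the replicate block the adjusted threshold was passed by 236 lower and 21 higher genes and by 0 for the difference between treatments. The rule of no overlap has no fit and so no blocked value. Of the 99 named genes, Sdc1 changed sign (log2 fold change 0.0427) with the median of its probe sets. Over 19 alternatives the named genes kept direction and side of the threshold in 1579 fits, lost the call in 217 and gained it in 68. The 1579 include genes that passed in neither fit. In the main fit 48 of the 99 were called, and only these could lose the call. Of the 48, 17 kept it whichever array was left out.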
